A study of Homo sapiens with 10 samples.

Results

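Enzymes that make asparagine, serine, cysteine and proline, or that handle carbon units on mitochondrial folate, were taken as a list of 10 genes. These were ASNS, PHGDH, PSAT1, PSPH, SHMT2, MTHFD2, ALDH1L2, CTH, PYCR1 and ALDH18A1. They were chosen by name, with earlier results of these data known. Of the 10, 7 were measured, each by 1 probe set, among 14884 genes in all. MTHFD2, ALDH1L2 and ALDH18A1 were not analysed here, since the annotation used here names no probe set for them. The arrays held RNA of MCF10A, a human mammary epithelial line that grows indefinitely but forms no tumours. There were 5 arrays of MCF10A H2A.X-KO cells, in which the gene of the histone variant H2A.X was knocked out, and 5 of parental MCF10A cells, WT for H2A.X.

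Both groups grew for 48 h in DMEM/F12 with 5% horse serum, hydrocortisone at 500 ng/ml, EGF at 20 ng/ml, cholera toxin at 100 ng/ml, insulin at 10 ug/ml and antibiotics. This base medium contains serine, glycine, asparagine and proline by its formulation. The labels do not say whether the knockout cells were a single clone or several, nor whether the 5 samples of a group were separate cultures, so the p-values speak only of the variation among these 10 arrays, part or all of which may be technical. The signal of the knocked out gene was not analysed here, so group membership is taken from the labels.

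Cells build serine from the glycolytic intermediate 3-phosphoglycerate in a short chain of reactions that PHGDH, PSAT1 and PSPH catalyse. SHMT2 then splits serine into glycine and a carbon unit carried by folate, which feeds the synthesis of thymidylate, purines and methionine. ASNS makes asparagine from aspartate and glutamine, CTH releases cysteine from cystathionine, and PYCR1 makes proline. Many of these genes are known targets of ATF4, a transcription factor whose translation rises when amino acids run short or the endoplasmic reticulum is stressed.

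The array medians over all genes differed little, and on the second principal component knockout replicate 1 was at 20.2, away from the other knockout arrays at -9.47 to -2.52. All 4 measured markers of basal breast epithelium, of 10 listed, were bright, with group means of 10.34 to 11.10 in H2A.X-KO and 8.26 to 10.41 in WT cells (log2), and all 4 rose, with a median difference of 0.73. All 15 measured S phase genes, of 16 listed, rose, with a median difference of 1.12. Over all genes, 15.3% were called higher and 19.0% lower (limma, adjusted p under 0.05), the same test as for these lists. Of the 3 measured fibroblast markers of 8 listed, 1 rose (DCN, at 2.06) and 1 fell (DPT, at -0.38). Their summed log2 signals were 12.84 to 13.65 in H2A.X-KO and 11.23 to 12.19 in WT arrays. Of the 4 measured endothelial markers of 6 listed, 1 rose (KDR, at 1.69). They summed to 18.51 to 19.53 in H2A.X-KO and 16.88 to 17.37 in WT arrays. No other marker of either list was called higher, and all the others had both group means below 5.49, the median of the gene means. The higher sums thus rest on DCN and KDR. Immune markers, with 1 higher and 2 lower of 3 measured of 6 listed, summed to 18.84 to 19.28 in H2A.X-KO and 19.27 to 19.59 in WT arrays. Adipocyte markers, with 0 of 3 measured called of 5 listed, summed to 10.75 to 11.47 in H2A.X-KO and 10.96 to 11.41 in WT arrays. The part of these other lists in the enzymes' values was not tested.

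In H2A.X-KO cells, 6 of the 7 measured enzymes fell and 0 rose. The largest falls were those of ASNS, PSAT1 and PHGDH, at 3.83-fold, 3.45-fold and 2.82-fold lower signal, followed by SHMT2, PSPH and PYCR1 at 1.73-fold, 1.68-fold and 1.39-fold. CTH was the member that did not pass. A gene passed at an adjusted p under 0.05 in limma, with Benjamini-Hochberg adjustment over all 14884 genes, and 19.0% of all genes were called lower. The median difference of the 7 was -0.79 on the log2 scale, against 0.00 over all genes. In the same 6 enzymes every knockout array lay below every WT array, which held for 16.0% of all genes. Because the list was chosen with earlier results of these data known, these shares and medians describe it and do not test it. Without knockout replicate 1 the count was again 6, with a median of -0.77. Values after ± are SD beside group means and SE beside differences.

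ASNS, which amidates aspartate with the amide group of glutamine, showed the lowest difference of the 7. Its promoter is shown because it holds the letters known as the amino acid response element of this gene. The 250 bases upstream of the start that RefSeq gives at chr7:97872409-97872658 (GRCh38.p14, minus strand) are written 5′ to 3′, with capitals marking the CARE letters TGATGNAA and the NSRE-2 letters GTTACA.
ASNS promoter: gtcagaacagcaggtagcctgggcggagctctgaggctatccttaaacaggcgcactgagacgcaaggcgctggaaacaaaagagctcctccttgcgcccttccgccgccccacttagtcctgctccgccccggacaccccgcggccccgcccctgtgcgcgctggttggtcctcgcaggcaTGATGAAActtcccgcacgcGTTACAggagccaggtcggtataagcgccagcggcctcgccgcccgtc
The CARE match, TGATGAAA, lay at -68 to -61 from the start and the NSRE-2 match at -48 to -43, both on the strand of the gene and without overlap. The factor ATF4 is known to bind the CARE element as a partner of C/EBP proteins. Both strands of 250 upstream bases were searched in 35116 RefSeq promoters, and TGATGNAA was found in 3.14% of them and GTTACA in 5.59%. The promoter table held 6 of the 10 listed genes, 4 of them measured (ASNS, PHGDH, PSAT1 and CTH). The CARE and NSRE-2 letters were each found in 1 of the 6, ASNS, at 1 of its 2 starts. The E-box CACGTG, which MYC can bind, was found in 1 of the 6, ALDH18A1, and in 6.34% of all promoters. A match describes letters and shows no binding.

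On the 5 H2A.X-KO arrays ASNS (probe set 17060061) had log2 signals of 6.12, 6.43, 6.49, 6.44 and 6.43, and on the 5 WT arrays 8.38, 8.35, 8.24, 8.39 and 8.23. Every knockout array lay below every WT array, with a gap of 1.74 between the nearest arrays. The group means were 6.38 ± 0.15 in H2A.X-KO and 8.32 ± 0.08 in WT cells (SD, n = 5 each). ASNS thus fell by 1.94 ± 0.07 (SE) on the log2 scale (95% confidence interval -2.10 to -1.77, adjusted p = 1.23e-09), a signal 3.83-fold lower. Knockout replicate 1 was the lowest array, and without it the difference was -1.87. In bulk RNA, fewer cells that express a gene and less RNA of it per cell cannot be told apart, which holds for all values given here.

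**Figure D1:**
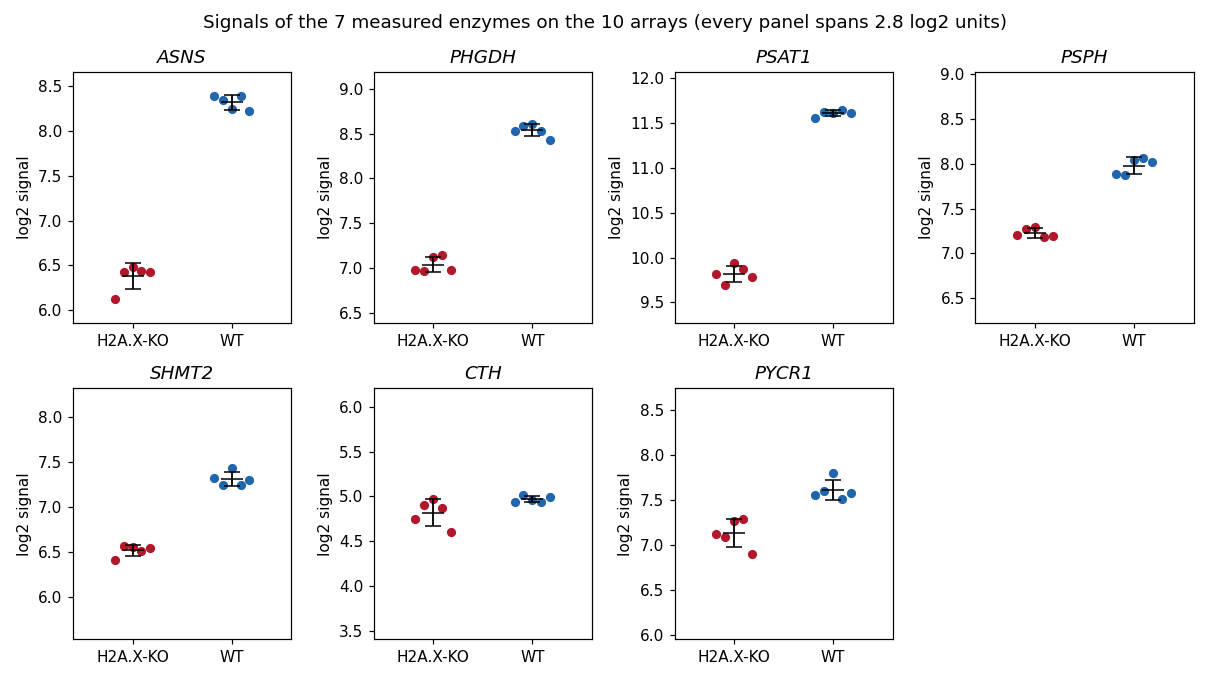
Log2 signal of each of the 7 measured enzymes on the 5 H2A.X-KO arrays (red, left) and the 5 WT arrays (blue, right), with the group mean (horizontal mark) and SD (bars). Every panel spans the same number of log2 units, and the groups overlap for CTH alone, with the widest gaps for ASNS (1.74), PSAT1 (1.61) and PHGDH (1.29).

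The 3 enzymes of serine synthesis all fell, by unequal amounts. PHGDH (probe set 16669389), the dehydrogenase that draws 3-phosphoglycerate into the pathway, had signals of 6.98, 6.97, 7.13, 7.14 and 6.99 in H2A.X-KO cells, against 8.53, 8.58, 8.61, 8.53 and 8.43 in WT cells. PSAT1 (probe set 17086193), the aminotransferase that acts on the product of PHGDH and takes its nitrogen from glutamate, had 9.82, 9.70, 9.94, 9.87 and 9.79 in H2A.X-KO cells, against 11.55, 11.62, 11.62, 11.64 and 11.62 in WT cells. PSPH (probe set 17057946), the phosphatase that releases serine, had 7.20, 7.28, 7.29, 7.18 and 7.20 in H2A.X-KO cells, against 7.88, 7.87, 8.05, 8.07 and 8.02 in WT cells. The groups did not overlap for any of the 3, and the replicates of each group lay close together compared with the distance between groups.

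PSAT1 fell by 1.79 ± 0.06 (SE; 95% confidence interval -1.91 to -1.66, adjusted p = 1.98e-10), which put its signal at 29.0% of that of WT cells. PHGDH fell by 1.50 ± 0.06 (-1.62 to -1.37, adjusted p = 1.57e-09), to 35.5% of the WT signal. PSPH fell by 0.75 ± 0.06 (-0.87 to -0.62, adjusted p = 5.48e-07), to 59.6%. The interval of PSPH lay apart from those of PHGDH and PSAT1, but these are different probe sets and array signals need not scale alike between them. PSPH has a pseudogene copy, PSPHP1, and the probe set may not tell them apart.

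SHMT2 (probe set 16752834), the mitochondrial serine hydroxymethyltransferase, had 6.41, 6.56, 6.55, 6.50 and 6.54 in H2A.X-KO cells, against 7.32, 7.24, 7.43, 7.24 and 7.30 in WT cells. It fell by 0.79 ± 0.06 (SE; -0.92 to -0.67, adjusted p = 2.49e-07), a signal 1.73-fold lower, and the groups lay 0.67 apart at their nearest arrays. PYCR1 (probe set 16850025), the mitochondrial reductase of the final step to proline, had 7.12, 7.09, 7.26, 7.29 and 6.90 in H2A.X-KO cells, against 7.56, 7.60, 7.80, 7.51 and 7.58 in WT cells. It fell by 0.48 ± 0.08 (-0.66 to -0.30, adjusted p = 0.000437), and the groups were separated by 0.22, the narrowest gap of the 6 enzymes that passed.

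CTH (probe set 16666055), the cystathionine gamma-lyase that releases cysteine, had 4.74, 4.90, 4.97, 4.88 and 4.60 in H2A.X-KO cells, against 4.94, 5.01, 4.96, 4.93 and 4.99 in WT cells. Its groups overlapped, and the difference of -0.15 ± 0.07 (SE; -0.30 to 0.00) did not pass the test (adjusted p = 0.127). Both group means were below 5.49, the median of the gene means. Array differences may be compressed among such dim signals, so a larger change of this transcript might not be seen as such here. The extent of compression was not tested.

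**Figure D2:**
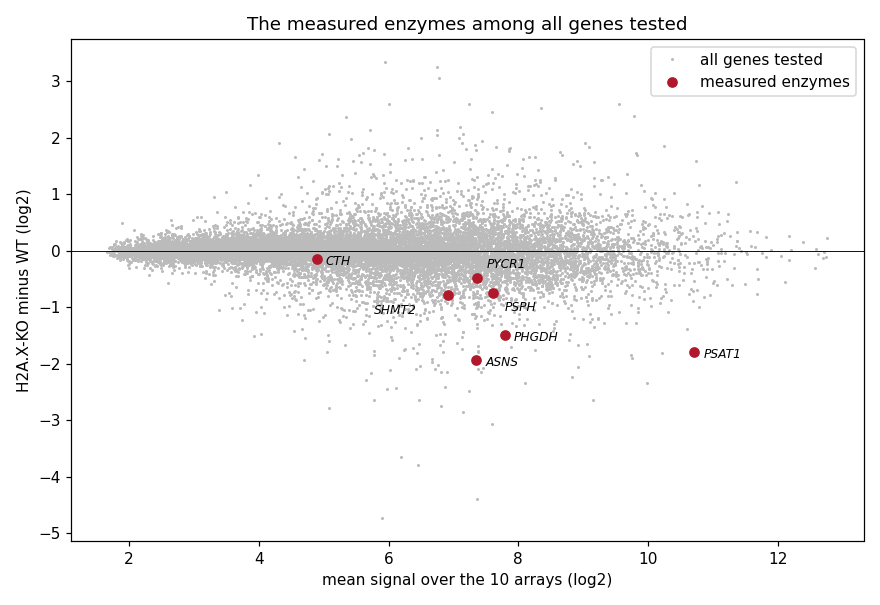
Difference between groups (H2A.X-KO minus WT, log2) against the mean log2 signal over the 10 arrays for all 14884 genes tested (grey) and the 7 measured enzymes (red). ASNS, PSAT1 and PHGDH lie at -1.94, -1.79 and -1.50, near the lower edge of the cloud, while CTH at -0.15 lies inside it among dim genes.

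Set against the transcriptome, ASNS ranked 34th, PSAT1 46th and PHGDH 70th among the 14884 genes from the most negative difference. SHMT2 ranked 413th, PSPH 476th and PYCR1 1165th, while 24.7% of all genes had a difference more negative than that of CTH. Falls of at least 2-fold that passed the test made up 1.5% of all genes, and ASNS, PSAT1 and PHGDH were among them.

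For the enzymes of mitochondrial folate use, transsulfuration and proline synthesis, a counterpart of related function was measured for 3 of the 7 planned pairs. SHMT1, the cytosolic serine hydroxymethyltransferase, rose by 0.29 ± 0.07 (adjusted p = 0.00433), with 7.33, 7.48, 7.57, 7.50 and 7.27 in H2A.X-KO cells, against 7.07, 7.13, 7.08, 7.23 and 7.18 in WT cells. The log2 ratio of SHMT2 to SHMT1 was -0.91 ± 0.11 in H2A.X-KO arrays and 0.17 ± 0.13 in WT arrays (SD, n = 5 each), a change of -1.08 (exact two-sided permutation test, adjusted p = 0.00794 over the 3 pairs). In limma the mitochondrial and the cytosolic form went in opposite directions, each past the test. Every knockout array lay below every WT array for SHMT2 and above every WT array for SHMT1, so their ratio had to separate fully. The permutation p of this pair was thereby fixed at its smallest value and adds nothing to those limma results.

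PYCR3, a cytosolic reductase of the same proline step, was at 5.84 ± 0.12 in H2A.X-KO and 5.60 ± 0.21 in WT cells (SD, n = 5 each) and did not pass (difference 0.24, limma, adjusted p = 0.0747). The ratio of PYCR1 to PYCR3 changed by -0.72, with 1.02 to 1.48 in H2A.X-KO arrays and 1.68 to 2.17 in WT arrays (exact permutation test, adjusted p = 0.00794). CBS, which makes the cystathionine that CTH cleaves, had 5.52, 5.41, 5.09, 5.19 and 5.61 in H2A.X-KO cells, against 6.15, 6.49, 6.36, 6.09 and 6.34 in WT cells, and fell by 0.92 ± 0.11 (adjusted p = 1.78e-05). Its knockout mean of 5.37 lay under 5.49, and CBS has a near-identical copy, CBSL, from which its probe set may not be told apart. The ratio of CTH to CBS changed by 0.77, with -1.01 to -0.12 in H2A.X-KO arrays and -1.47 to -1.15 in WT arrays (exact permutation test, adjusted p = 0.00794). The p of 0.00794 is the smallest that 5 against 5 arrays allow. PYCR1 alone already separated the groups, so the p of its ratio adds little to its limma fall. For CTH and CBS, the ranges of their signals forced the ratio to separate fully. Its p was thereby fixed and adds nothing to the limma fall of CBS. The dim signal of CTH limits what that last ratio shows.

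**Figure D3:**
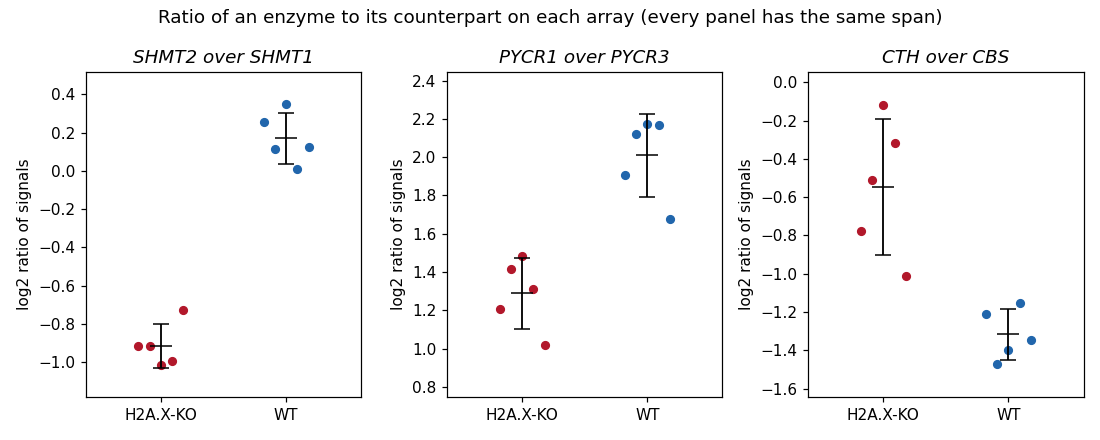
Log2 ratio of an enzyme to its counterpart on each H2A.X-KO array (red, left) and WT array (blue, right), with group mean and SD. The groups do not overlap in any of the 3 panels, and the ratio is lower in H2A.X-KO arrays for SHMT2 over SHMT1 (-1.08) and PYCR1 over PYCR3 (-0.72) and higher for CTH over CBS (0.77).

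The other enzymes of these pathways moved in both directions. Of 51 listed, 31 were measured: 11 rose, 2 fell and 18 did not pass, with a median of 0.09, beside 15.3% of all genes called higher and 19.0% called lower. Among 8 measured folate enzymes, MTHFD1L fell by 0.67 ± 0.08 (adjusted p = 1.74e-05). MTHFD1L releases formate from mitochondrial folate, and its signals were 6.99 to 7.43 in H2A.X-KO cells and 7.87 to 7.97 in WT cells. The other 3 that passed rose. TYMS, which uses a folate-borne carbon to make thymidylate, rose by 1.82 ± 0.08 (8.73 to 8.86 in H2A.X-KO cells, against 6.77 to 7.21 in WT cells). MTHFD2L, a mitochondrial relative of MTHFD2, rose by 0.50 ± 0.08, and SHMT1, described with its mitochondrial form, was the third. TYMS is also expressed with the S phase genes, all 15 of which rose, and the part of cell cycling in its value was not tested.

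Of 4 glycine cleavage genes, 2 rose and 2 did not pass. GLDC, the decarboxylase that starts glycine breakdown in mitochondria, rose by 0.60 ± 0.07, with 6.18 to 6.42 in H2A.X-KO cells and 5.59 to 5.80 in WT cells. In the methionine cycle and transsulfuration, 1 of 7 rose and 1, CBS, fell. AHCY, which clears S-adenosylhomocysteine, rose by 1.22 ± 0.07 (adjusted p = 1.79e-08), with 8.81, 8.94, 8.94, 9.07 and 8.97 in H2A.X-KO cells, against 7.66, 7.71, 7.85, 7.79 and 7.61 in WT cells. Its groups were 0.96 apart.

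Among 4 other genes of proline and ornithine metabolism, 2 rose and 2 did not pass. PRODH, which breaks proline down and so runs against PYCR1, rose by 0.93 ± 0.12 (adjusted p = 4.20e-05), with 5.09 to 5.73 in H2A.X-KO cells and 4.34 to 4.65 in WT cells. Its group means of 5.36 in H2A.X-KO and 4.44 in WT cells were both dim, below 5.49.

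Of 8 enzymes of aspartate, glutamate and arginine metabolism, 3 rose and 5 did not pass. GLUL, the glutamine synthetase, rose by 1.38 ± 0.07 (adjusted p = 1.53e-08), with 7.31, 7.49, 7.45, 7.33 and 7.57 in H2A.X-KO cells, against 5.99, 5.99, 6.23, 6.09 and 5.94 in WT cells. GLUD1, the glutamate dehydrogenase, rose by 1.21 ± 0.11 (6.98 to 7.60 in H2A.X-KO cells, against 5.89 to 6.22 in WT cells). GLUD1 has a near-identical retrocopy, GLUD2, and the values may hold both. GLUL makes glutamine, the nitrogen donor of ASNS, and the signal of GLUL was higher while that of ASNS was lower. Whether ASNS uses glutamine made by GLUL in these cells was not tested.

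**Figure D4:**
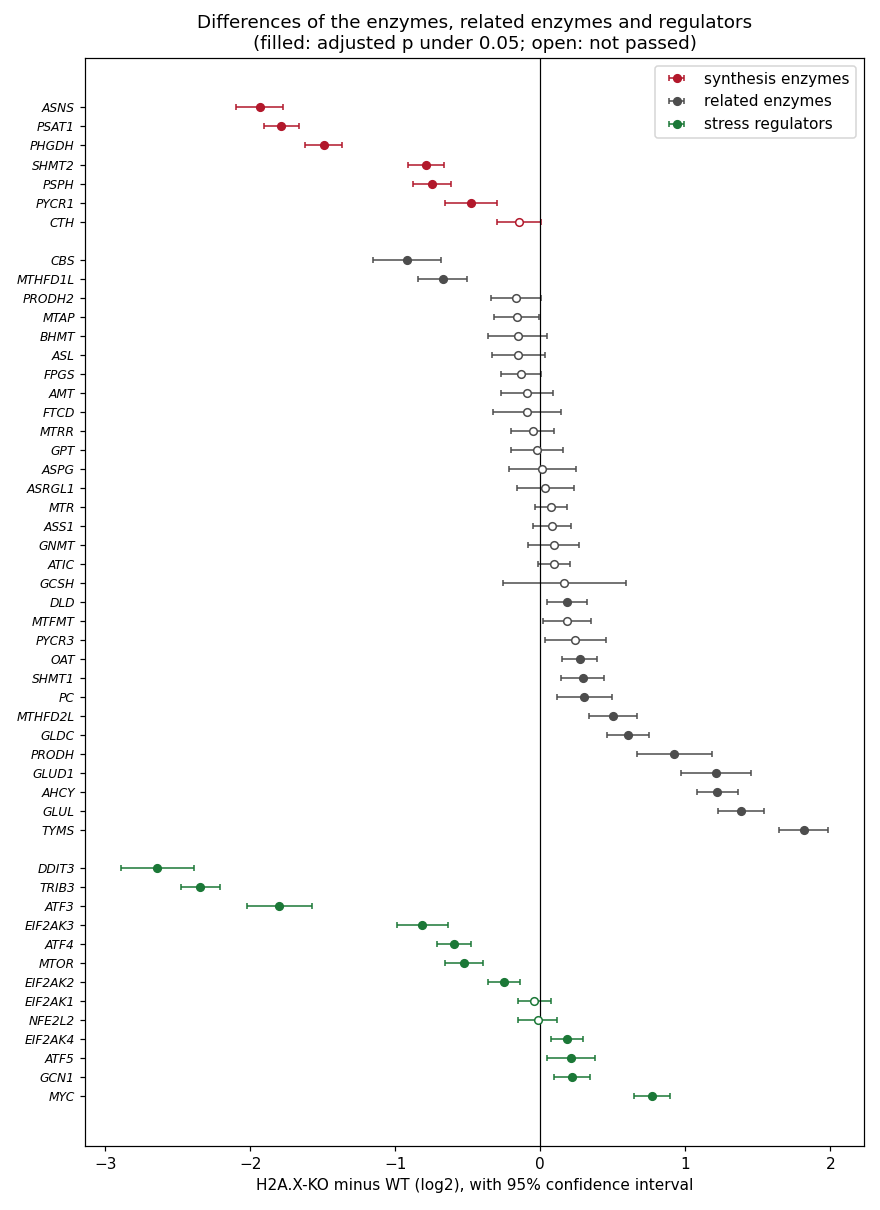
Difference between groups (H2A.X-KO minus WT, log2, with 95% confidence interval) for the 7 measured synthesis enzymes (red), 31 related enzymes (grey) and 13 stress regulators (green), sorted within each set. Filled points passed the test, and open points did not. The synthesis enzymes run from -1.94 to -0.15, while the related enzymes run from -0.92 for CBS to 1.82 for TYMS.

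The regulators known to act on these genes were lower in part. Of 18 listed, 13 were measured: 7 fell, 4 rose and 2 did not pass, beside 19.0% of all genes called lower and 15.3% called higher. ATF4 had 9.96, 9.81, 9.89, 9.78 and 9.79 in H2A.X-KO cells, against 10.50, 10.40, 10.42, 10.46 and 10.42 in WT cells, and fell by 0.60 ± 0.05 (adjusted p = 1.91e-06). ATF4 is controlled largely through its translation, which arrays do not measure. DDIT3, which encodes the stress factor CHOP, fell by 2.64 ± 0.12 (SE). TRIB3, a pseudokinase induced by ATF4 and CHOP, fell by 2.35 ± 0.06, and ATF3, a related stress factor, fell by 1.80 ± 0.10. Signals of DDIT3 were 4.24 to 4.66 in H2A.X-KO cells and 6.73 to 7.30 in WT cells, and those of ATF3 were 3.76 to 4.44 in H2A.X-KO cells and 5.83 to 6.02 in WT cells. The knockout signals of both lay under 5.49, where differences may be compressed, so the sizes of these 2 falls are uncertain.

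The kinases that start this response by phosphorylating eIF2 alpha did not move together. EIF2AK3 (PERK), which senses stress of the endoplasmic reticulum, fell by 0.81 ± 0.08, with 6.53 to 6.90 in H2A.X-KO cells and 7.33 to 7.61 in WT cells. EIF2AK4 (GCN2), which senses uncharged tRNA, rose by 0.19 ± 0.05 (adjusted p = 0.0129), and its activator GCN1 rose by 0.22 ± 0.06. EIF2AK2 (PKR), which binds double-stranded RNA, fell by 0.25 ± 0.05, and EIF2AK1 (HRI) was at a difference of -0.04 and did not pass. MTOR, the growth kinase, fell by 0.53 ± 0.06. MYC, a factor known to drive serine and folate genes in other cells, rose by 0.77 ± 0.06 (10.45 to 10.56 in H2A.X-KO cells, against 9.61 to 9.82 in WT cells). ATF5, a target of ATF4, was higher by 0.21 ± 0.08 (adjusted p = 0.0453), a call that ended when knockout replicate 1, 2 or 4 or WT replicate 2, 3, 4 or 5 was left out (adjusted p = 0.0993 without WT replicate 4, where the difference was 0.15). NFE2L2 was at -0.02 and did not pass.

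Genes next to each enzyme on its chromosome were examined to show each difference beside those of its surroundings. The median difference of the 20 nearest measured genes, 10 on each side, was -0.02 around ASNS, -0.02 around PHGDH, -0.01 around PSPH, -0.07 around SHMT2 and -0.16 around PSAT1. None of the 20 was more negative than ASNS, PHGDH, PSAT1 or PSPH in its own window, where the lowest neighbours were at -0.44, -0.46, -1.03 and -0.43. The median was 0.14 around PYCR1 on chromosome 17 and 0.04 around CTH. Of the 20 neighbours, 9 were called lower and 2 higher around PSAT1, 8 lower and 2 higher around SHMT2, and 1 lower and 8 higher around PYCR1, beside 19.0% lower and 15.3% higher among all genes. Around ASNS 3 were lower and 2 higher, around PHGDH 3 and 2, around PSPH 4 and 3, and around CTH 3 and 4. Among the nearest brighter genes, those above 5.49, the medians were -0.21 around PSAT1, -0.19 around PHGDH, -0.17 around ASNS and -0.10 to 0.16 around the other 4 enzymes. The part of position in the enzymes' differences was not tested.

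**Figure D5:**
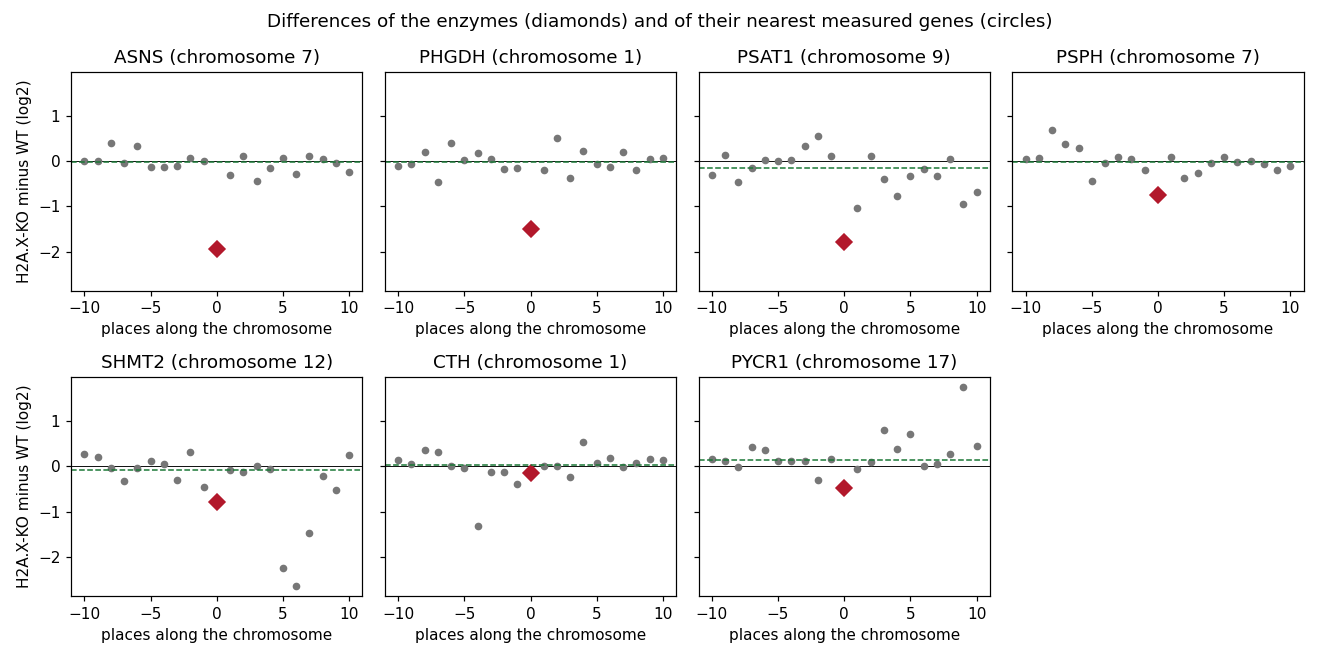
Difference between groups (H2A.X-KO minus WT, log2) for each measured enzyme (red diamond) and its 20 nearest measured genes (grey circles), by places along the chromosome, with the median of the 20 as a dashed green line. The diamonds of ASNS, PHGDH, PSAT1, PSPH and PYCR1 lie below all their neighbours, while 3 neighbours of SHMT2 and 3 of CTH lie lower.

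Within the groups, the enzymes varied together only in part. With each group's mean removed, Pearson correlations over the 10 arrays between the 21 pairs of measured enzymes ran from -0.16 (PSAT1 and SHMT2) to 0.72 (PHGDH and PYCR1). PYCR1 and CTH were at 0.69 and PHGDH and PSAT1 at 0.62. ASNS, which had the lowest difference between groups, reached at most 0.42, with PHGDH. Among 7436 brighter genes, the 5 whose within-group deviations were most like the mean of the 7 enzymes were LMO7 (0.98), CD70 (0.95), DHX8 (0.95), ARF1 (0.94) and CPT2 (0.94), as the highest of many correlations. Their differences between groups were -0.82, 0.33, 0.12, -0.59 and 0.34 in that order, and that of DHX8 did not pass. With each of the 10 arrays left out in turn, LMO7 stayed among the top 5 all 10 times. CD70 did so 5 times, DHX8 and ARF1 2 times each and CPT2 1 time. These correlations are descriptions over few arrays, whose deviations share whatever moved a whole array.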

How the data were processed

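RNA of 5 H2A.X-KO and 5 WT samples was measured on Affymetrix arrays from 1 ug of total RNA each. The authors deposited 1 log2 signal per probe set and array, already summarised and normalised. Affymetrix Expression Console and Partek 6.6 were used, per the submitters' processing notes, while the summarisation method is not given in the sources used here. Values ran from 1.13 to 13.87, from which the scale was recognised. Equal array medians leave no shift common to all genes to be seen.

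Of 53617 probe sets, 16098 had 1 gene symbol in the platform annotation, 0 had several and 37519 had none. Symbols were updated by Entrez identifier (RefSeq, GRCh38.p14), and all 16098 matched. The brightest probe set stood for each of 14884 genes. Differences (H2A.X-KO minus WT) were tested in R 4.3.3 with limma 3.58.1 (lmFit, then eBayes), with no covariate or filter, two-sided. Enzyme pairs were tested by exact permutation of arrays. The procedure was tested on simulated data. Neighbours were taken in RefSeq gene order, and promoters came from RefSeq.

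The members and lists were chosen with earlier results of these data known. Named were all members, counterparts and regulators, and related enzymes past the test with a difference of at least 0.5. The 5 genes most alike in within-group deviations were named too. The NSRE-2, CARE and E-box letters were chosen afterwards. Alternatives were quantile normalisation, centring, a dim gene filter, an intensity trend, other probe sets, all probe sets, each array left out and a replicate block. For arrays, their number limits the precision. Other steps ran in Python 3.11.15 (pandas 2.3.3, numpy 2.4.6) and plots in matplotlib 3.10.9.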

Additional observations from a re-analysis of the deposited data

Results flagged for a closer look

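A sample far from the 4 others of its group was seen in 6 of 62 groups of named genes examined, and chance flags about 1 in 20. Among the enzymes, ASNS in knockout replicate 1 was at 6.12, against 6.43 to 6.49 in the other knockout arrays, and its difference without that array was -1.87 (limma, adjusted p = 1.27e-09). PSAT1 in WT replicate 1 was at 11.55, against 11.62 to 11.64, and its difference without it was -1.80. MTHFD2L in knockout replicate 5 was at 9.00, against 8.64 to 8.71 (0.43 without it), and PRODH in WT replicate 1 at 4.65, against 4.34 to 4.42 (0.98 without it). EIF2AK3 in WT replicate 5 was at 7.33, against 7.58 to 7.61 (-0.87 without it). ATF5 in WT replicate 4 was at 6.48, against 6.76 to 6.80, and without that array ATF5 did not pass (0.15, adjusted p = 0.0993).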

How the results depend on the processing

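The 6 enzymes called lower and 0 called higher held under all 18 alternatives. The 7 measured enzymes kept their direction and their side of the threshold in all 125 values that could be computed. Part of this was fixed in advance. Each enzyme had 1 probe set, so the choice of other probe sets could not change its signals. The dim gene filter, the intensity trend, all probe sets and the replicate block also left each enzyme's difference as it was, and could change only its adjusted p. Counts of related enzymes ran from 2 to 3 lower and 10 to 12 higher, and of regulators 7 lower and 3 to 4 higher. The median of the members was -1.14 without dim genes, where CTH is left out and 6 remain, and -0.81 to -0.76 with an array left out. ATF5 no longer passed when all probe sets were tested, with the replicate block and in 7 of the 10 fits with an array left out, over all of which it ran from 0.15 to 0.24. PYCR3 passed without dim genes (adjusted p = 0.0362), without knockout replicate 2 (0.0491) and without WT replicate 5 (0.0115). Signs turned for regulators that did not pass, EIF2AK1 (0.023 under quantile normalisation) and NFE2L2 (0.050 under quantile normalisation, and -0.059 to 0.019 with an array left out). Neighbour medians turned sign around PSAT1 (0.017) and CTH (-0.075) with 5 neighbours on each side. Around PSPH the neighbour median, at -0.01, ran from -0.048 to 0.026 under the alternatives, so its sign turned as well. The cause was not tested. The replicate numbers are shared between groups, but deviations of same-numbered arrays correlated at -0.01 to 0.20, and only 3 of 10 samples correlated best with their own number, so they were not treated as pairs. With the replicate block 6 enzymes were again called lower. The ratio changes of -1.08, -0.72 and 0.77 each had an exact p of 0.0625, the smallest that 5 pairs allow. Groups that do not overlap always give that p, so it adds nothing. With an array left out these ratio changes ran from -1.13 to -1.04, from -0.80 to -0.65 and from 0.66 to 0.89. Signals under the median of gene means, as of CTH, limit how small a difference can be read.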

Other observations

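SHMT2 lies on chromosome 12 a few genes from a group that was much lower in H2A.X-KO cells. Between the 5th and 7th measured gene on one side stood MARS1 (-2.24), the methionyl-tRNA synthetase, DDIT3 (-2.64) and MIR616 (-1.47), a microRNA gene whose host is DDIT3, so that those values may share transcripts. The 4 genes between SHMT2 and MARS1, which are STAC3, R3HDM2, GLI1 and ARHGAP9, were at -0.08, -0.13, 0.01 and -0.06. FASN, the fatty acid synthase, 9 places from PYCR1, was at 1.75, the highest of the 20 neighbours of PYCR1. These genes were chosen after their values were seen.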
